A study of Homo sapiens with 8 samples.

Results

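Hypoxia-inducible factor (HIF) target genes and the genes of glycolysis were followed in HepG2 cells that overexpress cytochrome P450 CYP3A4 and were exposed to antioxidants used in plastics. The set held 40 genes picked by symbol, out of 60230 genes in the deposited table, and all 40 were found there: 5 HIF subunits and regulators, 13 HIF targets outside glycolysis and 22 glucose transporters, glycolytic enzymes and genes that decide the fate of pyruvate. Of these, 39 passed the filter on low counts; *CA12*, a carbonic anhydrase counted among the targets outside glycolysis, did not.

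HepG2 is a cell line from a human hepatocellular carcinoma. The study compared 4 groups of 2 samples each: cells given 0.2% DMSO as the solvent control, and cells given compound 4, compound 5 or compound 6 for 24 h. All 4 groups carried the CYP3A4 overexpression, so no group stands for HepG2 cells without it. The 3 compounds are bisphenol antioxidants with bulky alkyl groups on the rings: compounds 4 and 6 have a methylene bridge and differ in a *tert*-butyl against a cyclohexyl group on each ring, whereas compound 5 has an ethylidene bridge and *tert*-butyl groups at both substituted ring positions. Each was given at its own half-maximal inhibitory concentration, so the concentrations were not matched. The exposure time is from the study's methods. The labels give the 2 samples of a group a time of day 1 and day 2, read here as the day of the experiment and used as the replicate number. Nothing states that they came from separate cultures, and p-values then measure only the spread between these samples, which may be technical.

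HIF is a transcription factor made of an oxygen-regulated alpha subunit, HIF-1α (gene *HIF1A*) or HIF-2α (*EPAS1*), and the constitutive partner ARNT. Prolyl hydroxylases encoded by *EGLN* genes mark the alpha subunits in the presence of oxygen, and the VHL protein then directs them to degradation, so that HIF activity is set mostly at the protein level and is not read directly from these mRNA counts. Stabilised HIF binds promoters and enhancers at a short core motif and is known to induce angiogenic factors, acid-base enzymes, mitophagy receptors and nearly every step of glycolysis. In liver-derived tumour cells glycolysis is often run with enzyme forms that normal hepatocytes use little, such as hexokinase 2.

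The libraries held 9472261 to 13308975 estimated counts, and 3 counts, the limit that a count of 0 allows, were worth 0.234 to 0.313 CPM (counts per 1000000, scaled by the trimmed mean of M-values, the unit of every level below). The 9 hepatocyte markers were all expressed, with albumin at 12561 to 18489 CPM, while the blood marker *PTPRC* and the fibroblast marker *COL1A2* had no count in any sample. The summed level of the 9 hepatocyte markers moved with treatment, from 39541 to 41353 CPM in DMSO to 30902 to 31010.1, 32866 to 33040.0 and 31481 to 37853 CPM with compounds 4, 5 and 6. Of the 9 markers, 3, 3 and 2 were called lower and 1, 0 and 0 higher. Over all genes, 5.42%, 14.2% and 1.6% were called lower and 6.5%, 13.9% and 2.8% higher. The 6 blood, endothelial and fibroblast markers summed to 2.05 to 3.05 CPM in DMSO and to 7.02 to 9.92, 3.06 to 5.13 and 5 to 6.67 CPM with the compounds, most of it from *PDGFRB*. *CYP3A4* itself stood at 198 and 207 CPM in the DMSO samples, against 287 and 216 CPM under compound 4. *CYP3A4* had 371 and 421 CPM under compound 5 and 170.5 and 171 CPM under compound 6. *CYP3A4* rose with compound 5 (log2 fold change 0.97, SE 0.13, adjusted p = 0.00072). What part these shifts have in the results below was not tested. In bulk RNA, fewer cells and less RNA per cell cannot be told apart.

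The core motif that HIF recognises, ACGTG or GCGTG, was searched on both strands in the 300 bases around each RefSeq gene start (250 bases before to 50 after; GRCh38.p14). Among the 35 members with an entry, 25 promoters (71.4%) held at least 1 match, against 48.4% of the 27305 promoters in the table; the members' promoters were also richer in G and C (median 69.7% against 58.3%). A match was present in 14 of 21 glycolytic, 8 of 10 non-glycolytic and 3 of 4 regulator promoters. The palindrome CACGTG, which contains ACGTG on both strands and is also bound by MYC-type factors, was present in 14.3% of the members' promoters and in 7.4% of all. The stretches below are shown because these genes carry the changes described later or, for *BNIP3* and *LDHA*, the most matches of any member (6 each). Each is the 30-base stretch that holds the most matched bases, 5′ to 3′ on the strand of the gene, with matches to either strand in capitals.
CA9, chr9:35673898-35673927: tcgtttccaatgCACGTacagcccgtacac
BNIP3, chr10:131982032-131982061: gccgCACGTGccaCACGCacccCACGCccc
LDHA, chr11:18394470-18394499: gactcaCACGTGggttcccgCACGTccgcc
PGK1, chrX:78104043-78104072: cggACGTGacaaacggaagccgCACGTctc
ALDOC, chr17:28576915-28576944: aggcCACGCccccggaggagtCACGTagct
PFKFB4, chr3:48556952-48556981: tgagttgggcatGCGTGgtcggaggccggg
SLC2A1, chr1:42958827-42958856: gtagcaacagcgaGCGTGccggtcgctagt
In the GENCODE 29 annotation the stretches of *BNIP3*, *PGK1* and *PFKFB4* overlapped no exon of their gene, whereas those of *CA9*, *LDHA*, *ALDOC* and *SLC2A1* overlapped an exon of at least 1 transcript. Of the genes that rose, *HK1* and *PFKP* had no match in this window and *SLC2A1* had its single match 26 bases after the gene start. *ENO2*, *EPAS1* and *HIF1A*, which also rose with a compound, had a match 118, 117 and 204 bases before it. Of the genes that fell, *EGLN3*, *TPI1*, *PGAM1* and *PDK1* had no match. With compound 5, a match was present in 13 of the 17 promoters of genes that fell, in 3 of the 5 of genes that rose and in 8 of the 12 of genes not called. In the same order it was 5 of 8, 2 of 4 and 17 of 22 with compound 4. With compound 6 it was 3 of 5, 1 of 2 and 20 of 27. These matches describe sequence and were not tested for binding.

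Levels of different members were compared per kilobase of the longest annotated transcript. On that scale the DMSO samples were dominated by abundant enzymes: *GAPDH* (mean 1351 CPM per kb), *ENO1* (1316), *LDHA* (965), *ALDOA* (812) and *PKM* (607), all of them steps of lower glycolysis or the aldolase reaction except *LDHA*, which turns pyruvate into lactate. The 10 highest members were all glycolytic, and 9 of these 10 stayed among the 10 highest when the median transcript length was used instead. The HIF alpha subunits lay in the middle of the order, *EPAS1* at 61 and *HIF1A* at 28.4 CPM per kb. Of the non-glycolytic targets, *NDRG1* (104) and *BNIP3* (72.2) lay above both, and *LOX* (58.7) and *P4HA1* (42.4) between them. The other non-glycolytic targets lay below, among them *CA9* (25.8) and *VEGFA* (10.7). With the median transcript length *VEGFA* lay above *CA9* (118 against 40.3 CPM per kb). At the bottom were *HK1* (0.6), *PFKM* (0.243) and *CA12*. *CA12* stood at 0.295 and 0.411 CPM in the DMSO samples, against 0.599 and 0.234 CPM under compound 4. *CA12* had 0.183 and 0.393 CPM under compound 5 and 0.417 and 0.247 CPM under compound 6. These levels are near what 3 counts are worth, so a change was not detectable at this depth.

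More members fell than rose with each compound. With compound 4, 13 of 39 members were called (4 higher and 9 lower), where 11.9% of all 13404 genes tested were called (6.5% higher and 5.42% lower). For compound 5 it was 25 members (6 higher and 19 lower), against 28.1% of all genes (13.9% higher and 14.2% lower). For compound 6 it was 8 (2 higher and 6 lower), against 4.4% of all genes (2.8% higher and 1.6% lower). The fold changes of 30, 28 and 30 of the 39 were negative, and their median was -0.32, -0.33 and -0.32 on the log2 scale, while the median over all genes tested was 9.9e-05, -0.032 and 0.0028. A call means an adjusted p under 0.05 in edgeR's quasi-likelihood test. The 3 comparisons share the 2 DMSO samples, so their calls are not independent of each other.

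The counts of calls rested on few samples. For fits with a sample left out, the share called over all genes is not given here. Those counts therefore do not set the members against all genes. Leaving out DMSO replicate 1 or 2 left 3 calls in each case with compound 4. With compound 5, 16 calls were left without DMSO replicate 1 and 13 without compound 5 replicate 1. Compound 6 had 2 calls without DMSO replicate 1, 0 without DMSO replicate 2 and 0 without compound 6 replicate 2, but 15 without compound 6 replicate 1 and 17 without either compound 4 replicate, each left out in turn as throughout the text. With DESeq2 the count for compound 6 was 14, against 6.05% of all genes. The calls that held when any 1 of the 8 libraries was left out were *SLC2A1* and *PFKFB4* with compound 4, and 12 genes with compound 5: *EGLN3*, *CA9*, *BNIP3*, *SLC2A1*, *SLC2A3*, *HK1*, *PFKP*, *PFKFB3*, *PFKFB4*, *ALDOC*, *TPI1* and *PGAM1*. With compound 6 no call held throughout.

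**Figure D1:**
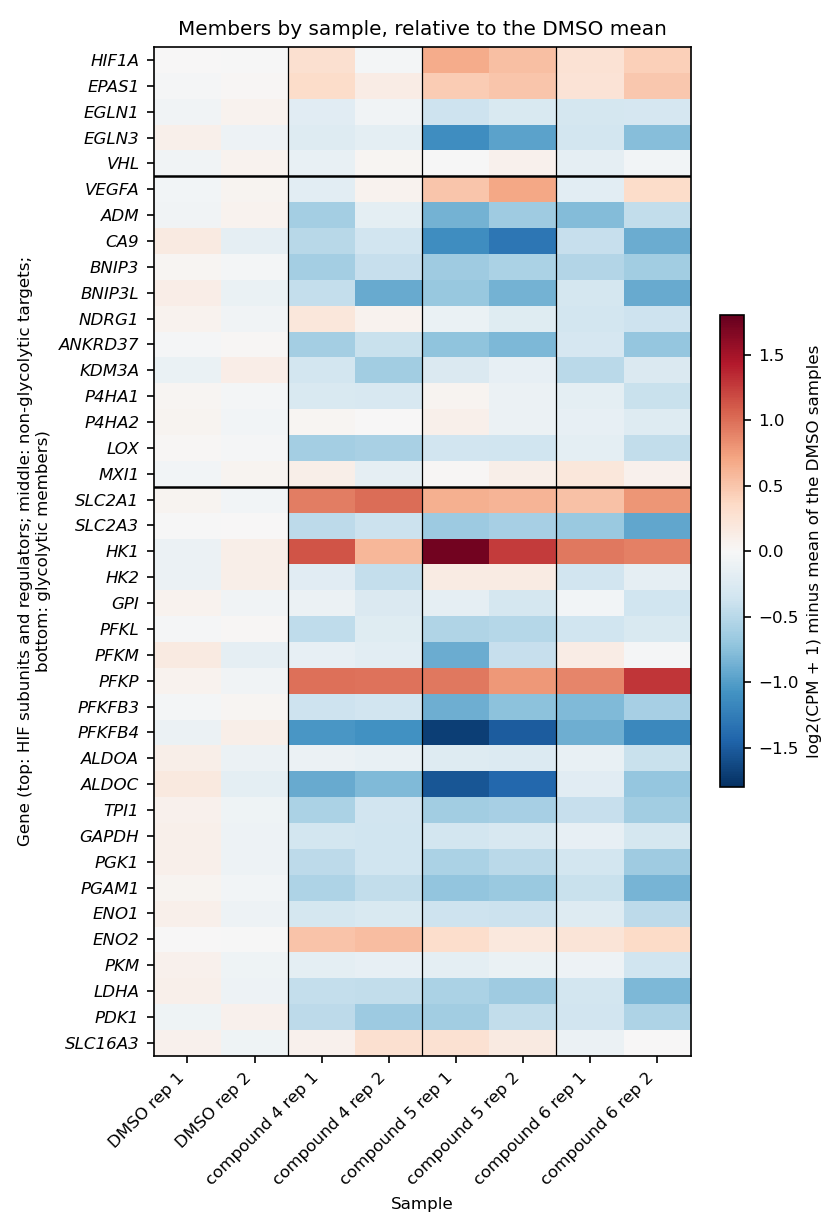
Level of each of the 39 tested members (rows) in each of the 8 samples (columns), as log2(CPM + 1) minus the mean of the 2 DMSO samples; red is higher and blue is lower. *SLC2A1*, *HK1* and *PFKP* are red in all 6 treated samples, and *PFKFB4*, *ALDOC*, *CA9* and *EGLN3* are darkest blue with compound 5.

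The HIF subunit and hydroxylase genes moved with compound 5, where both alpha subunits rose and the prolyl hydroxylase genes *EGLN1* and *EGLN3* fell. *HIF1A* (ENSG00000100644, GRCh38 chr14:61695513-61748259, plus strand) was 113 and 112 CPM in the DMSO samples, against 138 and 109.9 CPM under compound 4. *HIF1A* had 178 and 163 CPM under compound 5 and 135 and 151 CPM under compound 6. All 6 treated samples except compound 4 replicate 2 lay above the DMSO samples, and *HIF1A* rose with compound 5 (log2 fold change 0.61, SE 0.13, adjusted p = 0.0056). It was not called with compound 4 (log2 fold change 0.14, SE 0.13, adjusted p = 0.51) or compound 6 (log2 fold change 0.35, SE 0.13, adjusted p = 0.15). *EPAS1* (ENSG00000116016, GRCh38 chr2:46293667-46386703, plus strand) was 309 and 321 CPM in the DMSO samples, against 397 and 347 CPM under compound 4. *EPAS1* had 434 and 444 CPM under compound 5 and 372 and 441 CPM under compound 6. Every treated sample was above both DMSO samples, and the rise was again called with compound 5 (log2 fold change 0.48, SE 0.11, adjusted p = 0.011), with values of 0.24 for compound 4 and 0.37 for compound 6. The share of *HIF1A* in the summed alpha subunits per kb was 29.3% to 34.9% in every sample.

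*EGLN3*, a prolyl hydroxylase gene that is itself a HIF target, was 39.6 and 34.4 CPM in the DMSO samples, against 31.2 and 32.6 CPM under compound 4. *EGLN3* had 16.5 and 18.5 CPM under compound 5 and 29.3 and 21.2 CPM under compound 6. The compound 5 samples were the lowest of all 8, at 2.11-fold below DMSO (log2 fold change -1.08, SE 0.16, adjusted p = 0.0011), while the compound 4 and 6 samples lay between, with -0.21 and -0.56. *EGLN1*, the main oxygen sensor of the family, was 71.6 and 78.2 CPM in the DMSO samples, against 65.2 and 71.3 CPM under compound 4. *EGLN1* had 57.6 and 61.9 CPM under compound 5 and 59.7 and 60.6 CPM under compound 6. *EGLN1* fell with compound 5 (log2 fold change -0.33, SE 0.11, adjusted p = 0.042), and DESeq2 did not call it (adjusted p = 0.097), nor did edgeR with RLE factors (0.052) or without a filter on low counts (0.12). *EGLN2*, the remaining prolyl hydroxylase gene of the family and no member of the set, had 37.9 and 45 CPM in the DMSO samples, against 41.6 and 57.9 CPM under compound 4. *EGLN2* had 52.5 and 57 CPM under compound 5 and 36 and 42.9 CPM under compound 6. With compound 5 *EGLN2* had a positive value (log2 fold change 0.40, SE 0.16, adjusted p = 0.09), not called here but called with the day as a block (adjusted p = 0.032). *VHL* was not called with any compound, at 82 to 96.9 CPM over the 8 samples. The *HIF1A* call was lost without compound 5 replicate 1 (adjusted p = 0.0519). The *EPAS1* call was lost without DMSO replicate 1 or either compound 5 replicate (adjusted p = 0.0532 to 0.0838). The *EGLN1* call was lost without either DMSO replicate, either compound 5 replicate or either compound 6 replicate (adjusted p = 0.062 to 0.273). For compounds 4 and 6, edgeR called 0 of these 5 genes, where 11.9% and 4.4% of all genes were called. At an unadjusted p under 0.05 in edgeR there were 0 and 4, for which no share over all genes is given here. DESeq2 called *EPAS1* with compound 6 (adjusted p = 0.047) and none with compound 4.

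Among the targets outside glycolysis, falls prevailed, and *VEGFA* was the one member that rose. With compound 5, 7 of the 12 tested were called (1 higher and 6 lower). Compound 4 had 3 and compound 6 had 1, all lower. Over all genes 28.1%, 11.9% and 4.4% were called with compounds 5, 4 and 6. *VEGFA*, the angiogenic growth factor, was 126 and 134 CPM in the DMSO samples, against 114 and 135 CPM under compound 4. *VEGFA* had 184 and 211 CPM under compound 5 and 114 and 163 CPM under compound 6. Both compound 5 samples were above the other 6 samples (log2 fold change 0.60, SE 0.16, adjusted p = 0.018), while compounds 4 and 6 overlapped DMSO with -0.06 and 0.09. This call was lost without either DMSO replicate or compound 5 replicate 2 (adjusted p = 0.064 to 0.118).

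*CA9* (ENSG00000107159, GRCh38 chr9:35673856-35681159, plus strand), the surface carbonic anhydrase whose match to the core motif lies 18 bases before the gene start, was 46.7 and 36.8 CPM in the DMSO samples, against 29.1 and 32.3 CPM under compound 4. *CA9* had 18.6 and 16.2 CPM under compound 5 and 30.9 and 21.8 CPM under compound 6. All treated samples were below both DMSO samples and the 2 compound 5 samples were lowest, 2.4-fold below DMSO (log2 fold change -1.26, SE 0.18, adjusted p = 0.0009). *CA9* was not called with compound 4 (log2 fold change -0.44, SE 0.18, adjusted p = 0.13) or compound 6 (log2 fold change -0.67, SE 0.18, adjusted p = 0.062). DESeq2 called the latter (adjusted p = 0.029). *ADM*, which encodes the vasodilator adrenomedullin, was 24 and 26.1 CPM in the DMSO samples, against 16 and 22.1 CPM under compound 4. *ADM* had 13.5 and 15.8 CPM under compound 5 and 14.2 and 18.2 CPM under compound 6. All its treated samples were below DMSO. *ADM* fell with compound 5 (log2 fold change -0.77, SE 0.18, adjusted p = 0.011), a call lost without DMSO replicate 2 or compound 5 replicate 1 (adjusted p = 0.0766 to 0.106). For *ADM* with compound 6 the adjusted p was 0.081, or 0.042 with the day as a block. *ANKRD37*, a small ankyrin repeat gene, was low, at 4.63 and 4.85 CPM in the DMSO samples, against 2.74 and 3.35 CPM under compound 4. *ANKRD37* had 2.47 and 2.28 CPM under compound 5 and 3.65 and 2.55 CPM under compound 6. *ANKRD37* fell with compound 5 (log2 fold change -1.0, SE 0.29, adjusted p = 0.025). That call was lost without either DMSO replicate or either compound 5 replicate (adjusted p = 0.0902 to 0.114) and in DESeq2 (adjusted p = 0.097).

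Both mitophagy receptors fell with compound 5. *BNIP3* (ENSG00000176171, GRCh38 chr10:131966455-131982013, minus strand) was 226 and 217 CPM in the DMSO samples, against 144 and 166 CPM under compound 4. *BNIP3* had 142 and 148 CPM under compound 5 and 153 and 144 CPM under compound 6. No treated sample reached the DMSO level, and all 3 comparisons were called. *BNIP3* fell with compound 4 (log2 fold change -0.52, SE 0.10, adjusted p = 0.011) and compound 5 (log2 fold change -0.61, SE 0.11, adjusted p = 0.0023). The fall with compound 6 was of the same order (log2 fold change -0.58, SE 0.11, adjusted p = 0.016). The compound 4 call was lost without either DMSO replicate (adjusted p = 0.0803 to 0.0804). That of compound 6 was lost without either DMSO replicate or compound 6 replicate 2 (adjusted p = 0.116 to 0.181). *BNIP3L*, its close relative, was 67.9 and 57.9 CPM in the DMSO samples, against 46.3 and 33.1 CPM under compound 4. *BNIP3L* had 38.8 and 34.4 CPM under compound 5 and 50.2 and 33 CPM under compound 6. All treated samples were again below DMSO. Of the 3 compounds, compound 5 passed the test for *BNIP3L* (log2 fold change -0.78, SE 0.20, adjusted p = 0.016), a call lost without DMSO replicate 1 or either compound 5 replicate (adjusted p = 0.071 to 0.114). With the day as a block, *BNIP3L* was also called with compound 4 (adjusted p = 0.012 against 0.057 without) and compound 6 (0.038 against 0.12). The compound 4 value of *BNIP3L* was called in 7 of the 8 alternatives other than leaving out single samples, among them DESeq2 (adjusted p = 0.018).

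*LOX*, the lysyl oxidase that cross-links collagen, was 305 and 295 CPM in the DMSO samples, against 195 and 200.1 CPM under compound 4. *LOX* had 236 and 234 CPM under compound 5 and 265 and 220.0 CPM under compound 6. It fell with compound 4 (log2 fold change -0.60, SE 0.11, adjusted p = 0.0062). *LOX* also fell with compound 5 (log2 fold change -0.35, SE 0.11, adjusted p = 0.034), while compound 6 gave -0.31 without a call. The compound 4 call was lost without either DMSO replicate (adjusted p = 0.05 to 0.0542). For compound 5 it was lost without either DMSO replicate or either compound 5 replicate (adjusted p = 0.125 to 0.162). *KDM3A*, a histone H3 lysine demethylase, was 77.6 and 91.5 CPM in the DMSO samples, against 66.6 and 54.1 CPM under compound 4. *KDM3A* had 70.1 and 76.1 CPM under compound 5 and 60.1 and 69.9 CPM under compound 6. *KDM3A* was called with compound 4 and not with the other two (log2 fold change -0.49, SE 0.14, adjusted p = 0.043). That call was lost with the day as a block (adjusted p = 0.058), in a fit of only the groups compared (adjusted p = 0.077) and without either DMSO replicate, compound 4 replicate 2 or either compound 5 replicate (adjusted p = 0.0702 to 0.31). The collagen prolyl hydroxylases *P4HA1* and *P4HA2*, the stress-response gene *NDRG1* and the MYC antagonist *MXI1* were not called by edgeR with any compound; DESeq2 called *NDRG1* lower with compound 6 (adjusted p = 0.034). Their log2 fold changes lay between -0.35 (*NDRG1*, compound 6) and 0.15 (*MXI1*, compound 6).

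**Figure D2:**
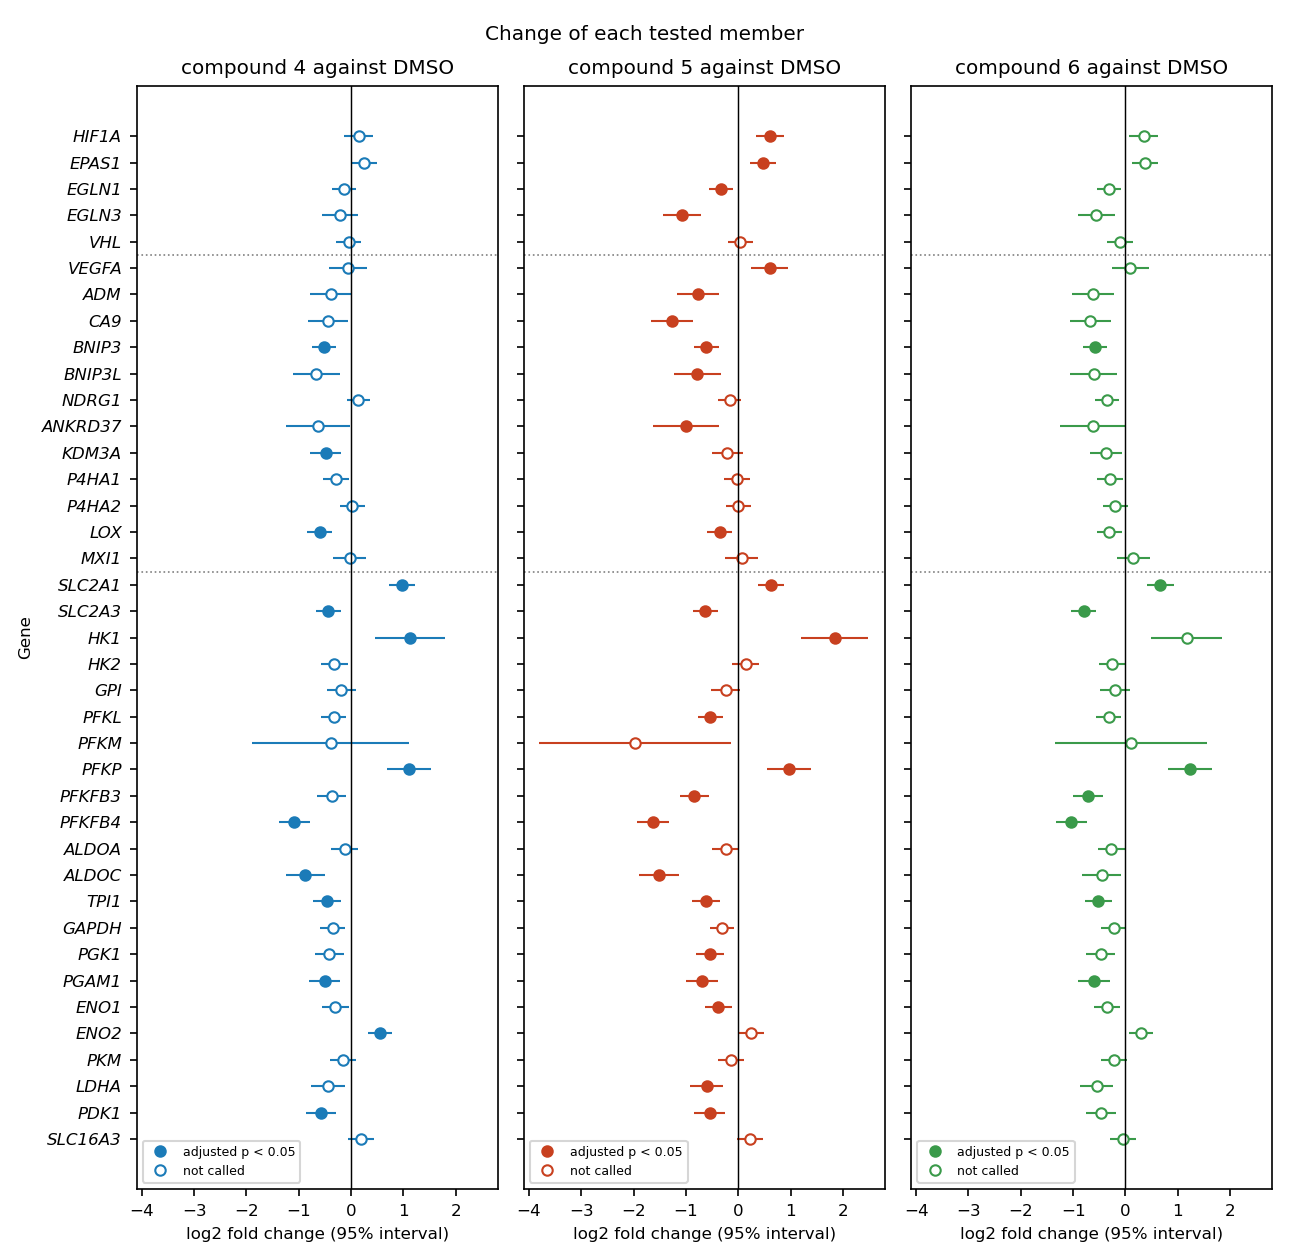
Log2 fold change against DMSO of each tested member (rows, ordered as HIF subunits and regulators, non-glycolytic targets and glycolytic members, separated by dotted lines) for compounds 4, 5 and 6. Points are edgeR estimates with 95% intervals, filled where the adjusted p was under 0.05; 13, 25 and 8 points are filled, and most lie left of 0.

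The called genes among the 22 glycolytic members moved both ways: 10 were called under compound 4 (4 higher and 6 lower), 14 under compound 5 (3 and 11) and 7 under compound 6 (2 and 5). Over all genes 11.9%, 28.1% and 4.4% were called. The glucose transporters showed this first. *SLC2A1* (ENSG00000117394, GRCh38 chr1:42925375-42959176, minus strand), which encodes GLUT1, was 1293 and 1205 CPM in the DMSO samples, against 2361 and 2517 CPM under compound 4. *SLC2A1* had 1940.5 and 1908 CPM under compound 5 and 1801 and 2171 CPM under compound 6. All 6 treated samples were above both DMSO samples. *SLC2A1* was 1.95-fold higher with compound 4 (log2 fold change 0.97, SE 0.11, adjusted p = 0.00092). It was 1.54-fold higher with compound 5 (log2 fold change 0.62, SE 0.11, adjusted p = 0.0029) and 1.59-fold higher with compound 6 (log2 fold change 0.67, SE 0.11, adjusted p = 0.012). *SLC2A3*, the gene of the neuronal-type transporter GLUT3, went the other way, at 451 and 455 CPM in the DMSO samples, against 325 and 345 CPM under compound 4. *SLC2A3* had 288 and 298 CPM under compound 5 and 283 and 237 CPM under compound 6. Every treated sample was below DMSO, and all 3 comparisons were called, with log2 fold changes of -0.43, -0.63 and -0.80 for compounds 4, 5 and 6 (adjusted p = 0.026, 0.0023 and 0.0052). In its transcripts, 29.9% of the 31-base words also occur in other genes, most of all its near copy *SLC2A14*, whose estimated counts came to 4.45% of those of *SLC2A3*, so its level is uncertain where reads were split between the copies. The *SLC2A1* call for compound 6 was lost without either DMSO replicate or compound 6 replicate 2 (adjusted p = 0.0715 to 0.144). The *SLC2A3* call for compound 4 was lost without either DMSO replicate, compound 4 replicate 1 or compound 5 replicate 2 (adjusted p = 0.05 to 0.161). That for compound 6 was lost without DMSO replicate 2 or compound 6 replicate 2 (adjusted p = 0.0624 to 0.0878).

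Of the early steps of glycolysis, *HK1* and *PFKP*, both minor forms among the enzymes of their step here, rose with compounds 4 and 5. *HK1*, the hexokinase found in most tissues, was low, at 2.17 and 2.63 CPM in the DMSO samples, against 6.41 and 4.13 CPM under compound 4. *HK1* had 10.3 and 7.14 CPM under compound 5 and 5.53 and 5.35 CPM under compound 6. Each treated sample was above DMSO. *HK1* rose with compound 4 (log2 fold change 1.12, SE 0.30, adjusted p = 0.036). With compound 5 it had the largest rise of any member (log2 fold change 1.84, SE 0.29, adjusted p = 0.0014). Compound 6 gave 1.17 with an adjusted p of 0.058, and 0.04 in a fit of only the groups compared. *HK2*, the hexokinase typical of tumour cells, was at 244 to 364 CPM and was not called against DMSO with any compound. The compound 4 call of *HK1* was lost without either DMSO replicate or compound 4 replicate 1 (adjusted p = 0.139 to 0.176). It was also lost in a fit of only the groups compared (adjusted p = 0.061).

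*PFKP*, the platelet-type phosphofructokinase, was 6.01 and 5.42 CPM in the DMSO samples, against 12.3 and 12.2 CPM under compound 4. *PFKP* had 11.9 and 10.5 CPM under compound 5 and 11.4 and 15.4 CPM under compound 6. Its 6 treated samples, between 10.5 and 15.4 CPM, were all well above DMSO, with rises of 1.10, 0.97 and 1.24 for compounds 4, 5 and 6 (SE 0.19 each; adjusted p = 0.005, 0.0045 and 0.0085). *PFKL*, the liver-type form, was 129 and 134 CPM in the DMSO samples, against 95.2 and 113 CPM under compound 4. *PFKL* had 90 and 91.4 CPM under compound 5 and 102 and 108 CPM under compound 6. *PFKL* was below DMSO in every treated sample and was called with compound 5 (log2 fold change -0.53, SE 0.11, adjusted p = 0.0055). *PFKM*, the muscle-type form, was near the limit of detection, at 0 to 1.08 CPM, and was not called. The *PFKP* call for compound 4 was lost without DMSO replicate 2 (adjusted p = 0.0712), and that for compound 6 without either DMSO replicate or compound 6 replicate 2 (adjusted p = 0.0586 to 0.123). The *PFKL* call was lost without DMSO replicate 2 or compound 5 replicate 1 (adjusted p = 0.0536 to 0.0603).

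*PFKFB3* and *PFKFB4* fell. They belong to the *PFKFB* genes, whose bifunctional enzymes make and break fructose 2,6-bisphosphate, a potent activator of phosphofructokinase. *PFKFB4* (ENSG00000114268, GRCh38 chr3:48517684-48562015, minus strand) was 78.3 and 91.6 CPM in the DMSO samples, against 40.6 and 39.3 CPM under compound 4. *PFKFB4* had 25.4 and 29.4 CPM under compound 5 and 45.8 and 37.4 CPM under compound 6. No treated sample came near the DMSO level, and all 3 comparisons were called. *PFKFB4* was 2.13-fold lower with compound 4 (log2 fold change -1.09, SE 0.13, adjusted p = 0.0011). It was 3.1-fold lower with compound 5 (log2 fold change -1.63, SE 0.14, adjusted p = 8.7e-05), the largest called fall of any member. With compound 6 it was 2.05-fold lower (log2 fold change -1.03, SE 0.13, adjusted p = 0.0047). *PFKFB3* was 36.1 and 37.9 CPM in the DMSO samples, against 28.2 and 29 CPM under compound 4. *PFKFB3* had 19.6 and 21.7 CPM under compound 5 and 21 and 24 CPM under compound 6. It was again below DMSO in all 6 treated samples. *PFKFB3* was called with compound 5 (log2 fold change -0.84, SE 0.13, adjusted p = 0.0011) and compound 6 (log2 fold change -0.72, SE 0.13, adjusted p = 0.014). It was not called with compound 4 (log2 fold change -0.37, SE 0.12, adjusted p = 0.078). The compound 6 call was lost without DMSO replicate 2 or compound 6 replicate 2 (adjusted p = 0.0598 to 0.0878) for *PFKFB4*. For *PFKFB3* it was lost without either DMSO replicate or compound 6 replicate 2 (adjusted p = 0.0757 to 0.144). Of the family's other genes, outside the set, *PFKFB2* went the opposite way, at 15.2 and 15.5 CPM in the DMSO samples, against 31.1 and 22.5 CPM under compound 4. *PFKFB2* had 23.4 and 20 CPM under compound 5 and 22 and 29.9 CPM under compound 6. It was above DMSO in every treated sample. *PFKFB2* rose with compound 4 (log2 fold change 0.80, SE 0.19, adjusted p = 0.023), a call lost without either DMSO replicate or compound 4 replicate 1 (adjusted p = 0.0877 to 0.131). It was not called with compound 5 (0.50, adjusted p = 0.081) or compound 6 (0.76, adjusted p = 0.054). *PFKFB1* was not called with any compound.

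*ALDOC* (ENSG00000109107, GRCh38 chr17:28573115-28577264, minus strand), the brain-type aldolase with 5 matches to the core motif in its promoter, was 119.9 and 93.3 CPM in the DMSO samples, against 56 and 60.3 CPM under compound 4. *ALDOC* had 35.6 and 39.1 CPM under compound 5 and 91.3 and 64.7 CPM under compound 6. *ALDOC* was 2.85-fold lower with compound 5 (log2 fold change -1.51, SE 0.17, adjusted p = 0.00029) and 1.83-fold lower with compound 4 (log2 fold change -0.87, SE 0.17, adjusted p = 0.0085). The compound 6 samples came closer to DMSO (log2 fold change -0.45, SE 0.17, adjusted p = 0.16). *ALDOA*, which supplied 93.5% to 97.5% of the 2 aldolases per kb, was not called, with -0.12, -0.24 and -0.27. *TPI1*, the single gene of triosephosphate isomerase, was 789 and 706 CPM in the DMSO samples, against 501 and 586 CPM under compound 4. *TPI1* had 481 and 494 CPM under compound 5 and 561 and 481 CPM under compound 6. Every treated sample was below DMSO. *TPI1* fell by 0.46, 0.61 and 0.52 on the log2 scale with compounds 4, 5 and 6 (adjusted p = 0.031, 0.0041 and 0.037, and 0.053 for compound 6 with the day as a block). *GPI*, phosphoglucose isomerase, was not called, at -0.19, -0.24 and -0.20. The *ALDOC* call for compound 4 was lost without DMSO replicate 1 (adjusted p = 0.0767). The *TPI1* call for compound 4 was lost without either DMSO replicate, compound 4 replicate 1 or either compound 5 replicate (adjusted p = 0.0553 to 0.189), and in a fit of only the groups compared (adjusted p = 0.058). The *TPI1* call for compound 6 was lost without either DMSO replicate, either compound 5 replicate or compound 6 replicate 2 (adjusted p = 0.0663 to 0.354).

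In lower glycolysis every gene but *ENO2* had negative values with all 3 compounds. *PGAM1*, phosphoglycerate mutase, was 501 and 469 CPM in the DMSO samples, against 328 and 355 CPM under compound 4. *PGAM1* had 296 and 304 CPM under compound 5 and 368 and 272 CPM under compound 6. *PGAM1* fell with compound 4 (log2 fold change -0.51, SE 0.13, adjusted p = 0.034) and compound 5 (log2 fold change -0.69, SE 0.13, adjusted p = 0.0042). It also fell with compound 6 (log2 fold change -0.60, SE 0.13, adjusted p = 0.035). *PGK1*, phosphoglycerate kinase, the first step that yields ATP, was 929 and 826 CPM in the DMSO samples, against 632 and 685 CPM under compound 4. *PGK1* had 589 and 623 CPM under compound 5 and 699 and 564 CPM under compound 6. *PGK1* was called with compound 5 (log2 fold change -0.53, SE 0.12, adjusted p = 0.0093). It lay just outside the threshold with compound 4 (-0.41, adjusted p = 0.052) and compound 6 (-0.48, adjusted p = 0.056). DESeq2 called both (adjusted p = 0.013 and 0.0062). *ENO1*, the main enolase, was 3572 and 3133 CPM in the DMSO samples, against 2682 and 2768 CPM under compound 4. *ENO1* had 2595 and 2553 CPM under compound 5 and 2842 and 2402 CPM under compound 6. For *ENO1*, edgeR called the fall with compound 5 (log2 fold change -0.38, SE 0.11, adjusted p = 0.03) and DESeq2 also with compound 6 (adjusted p = 0.044). *ENO2*, the neuronal-type enolase, was the only member of lower glycolysis that rose. *ENO2* was 63.2 and 62.1 CPM in the DMSO samples, against 89.9 and 93 CPM under compound 4. *ENO2* had 77.9 and 71.4 CPM under compound 5 and 73.5 and 80.2 CPM under compound 6. The call was for compound 4 (log2 fold change 0.54, SE 0.10, adjusted p = 0.0082), with values of 0.25 and 0.30 for compounds 5 and 6. *GAPDH*, often used as a reference gene, was 2688 and 2376 CPM in the DMSO samples, against 2008 and 1965 CPM under compound 4. *GAPDH* had 2012 and 2079 CPM under compound 5 and 2291 and 2036 CPM under compound 6. Both DMSO samples were above all treated samples. With -0.35, -0.31 and -0.23, *GAPDH* was not called by edgeR in the main fit (adjusted p = 0.057, 0.052 and 0.27). DESeq2 called it lower with compounds 4 and 5 (adjusted p = 0.017 and 0.044). So did edgeR with library size alone (adjusted p = 0.034 and 0.013) and without a filter on low counts (0.014 and 0.047). With upper-quartile factors edgeR called it with compound 5 (adjusted p = 0.023). *PKM*, pyruvate kinase M, gave -0.16, -0.14 and -0.22 and was not called.

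The *PGAM1* call for compound 4 was lost without either DMSO replicate, compound 4 replicate 1 or either compound 5 replicate (adjusted p = 0.0592 to 0.17). That for compound 6 was lost without either DMSO replicate, either compound 5 replicate or compound 6 replicate 2 (adjusted p = 0.0616 to 0.305). The *PGK1* call for compound 5 was lost without DMSO replicate 1 or compound 5 replicate 1 (adjusted p = 0.085 to 0.0859). The *ENO1* call was lost without either DMSO replicate or either compound 5 replicate (adjusted p = 0.0562 to 0.206). The *ENO2* call was lost without either DMSO replicate (adjusted p = 0.0572 to 0.0901). Several of these genes share sequence with other genes: the share of 31-base words found in other genes was 42.9% for *ALDOA*, 34.9% for *PGAM1*, 20.1% for *GAPDH*, 19% for *BNIP3*, 17.7% for *TPI1*, 15.5% for *HK2*, 12.4% for *PGK1* and 10.3% for *GPI*, so that their counts are uncertain where the quantification split reads between genes. The other 31 members were at or under 10%. For *BNIP3*, *HK2*, *TPI1* and *GAPDH*, the estimated counts of the gene sharing the most words came to 0.14%, 0.035%, 1.3% and 0% of the member's.

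Around pyruvate, *LDHA* (ENSG00000134333, GRCh38 chr11:18394388-18408425, plus strand), lactate dehydrogenase A, was 2479 and 2182 CPM in the DMSO samples, against 1721 and 1713 CPM under compound 4. *LDHA* had 1574 and 1489.8 CPM under compound 5 and 1846 and 1331 CPM under compound 6. All treated samples were below DMSO and compound 5 passed the test (log2 fold change -0.61, SE 0.14, adjusted p = 0.011). For *LDHA*, compound 4 gave -0.44 (adjusted p = 0.072). With compound 6, *LDHA* had -0.55 (adjusted p = 0.057, or 0.045 with the day as a block). DESeq2 called both (adjusted p = 0.019 and 0.0036). *PDK1*, a kinase that inhibits pyruvate dehydrogenase, was 47.6 and 53.5 CPM in the DMSO samples, against 36.1 and 31.6 CPM under compound 4. *PDK1* had 32.4 and 36.7 CPM under compound 5 and 39.5 and 33.9 CPM under compound 6. *PDK1* fell with compound 4 (log2 fold change -0.58, SE 0.13, adjusted p = 0.017) and compound 5 (log2 fold change -0.55, SE 0.13, adjusted p = 0.012). It had -0.46 with compound 6 (adjusted p = 0.073). *SLC16A3*, the lactate exporter MCT4, was not called, at 572 to 749 CPM over the 8 samples. The *LDHA* call was lost without DMSO replicate 1 or either compound 5 replicate (adjusted p = 0.0602 to 0.0885). The *PDK1* call for compound 4 was lost without either DMSO replicate or compound 4 replicate 2 (adjusted p = 0.0512 to 0.168). That for compound 5 was lost without DMSO replicate 2 or compound 5 replicate 1 (adjusted p = 0.11 to 0.121).

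Among set members that serve the same step, the shares of the forms differed between DMSO and the treated samples. Expressed forms outside the set were left out of these sums. The further hexokinase *HKDC1* had 43.4 and 50.3 CPM in DMSO and 122 and 117 CPM under compound 5. The further glucose transporter *SLC2A2* had 80.7 and 77.1 CPM in DMSO and 47.9 and 45.3 CPM under compound 5. Per kb of the longest transcript, *PFKP* made up 9.05% and 8.03% of the 3 phosphofructokinases in the DMSO samples. In the 6 treated samples its share was 18.8% to 23.3%. *SLC2A1* made up 77.5% and 76.1% of the 2 transporters in the DMSO samples. In the treated samples its share was 88.4% to 91.7%. *HK1* stayed a small part of the 2 hexokinases, 1.02% and 1.06% in DMSO and 2.39% to 3.92% in the treated samples, and *ENO2* was 1.57% and 1.76% of the 2 enolases in DMSO against 2.28% to 2.94% in the treated samples. In the aldolases the minor form *ALDOC* had 6.48% and 5.9% in DMSO against 3.62% and 3.96% under compound 4. Its share was 2.53% and 2.82% under compound 5 and 5.88% and 5.08% under compound 6. The treated samples did not overlap DMSO for any of these shares, although the highest compound 6 share of *ALDOC* lay close to the lowest DMSO share. The share of *PFKM* did overlap, at 1.26% and 0.753% in DMSO and 0% to 1.36% in the treated samples. These shares rest on genes already described above by their changes, and were not tested. The shares of *HK1* and *PFKP* depend on the length used: with the median transcript length *HK1* was 4.9% to 5.11% in DMSO and *PFKP* 13.6% to 15.1%, and the treated samples were again all higher.

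Glycolytic and non-glycolytic members were then set side by side. The median log2 fold change was -0.34, -0.46 and -0.29 for the 22 glycolytic members and -0.42, -0.28 and -0.37 for the 12 tested non-glycolytic targets with compounds 4, 5 and 6, and -0.05, 0.04 and -0.10 for the 5 subunits and regulators. Both target groups were thus negative with every compound, with 17, 16 and 17 of 22 and 10, 10 and 10 of 12 genes below 0. By sample, the glycolytic median of log2(CPM + 1) relative to DMSO was -0.32 ± 0.01, -0.43 ± 0.04 and -0.30 ± 0.11 for compounds 4, 5 and 6 (mean ± SD, n = 2 each), and the non-glycolytic median was -0.35 ± 0.04, -0.29 ± 0.01 and -0.37 ± 0.08. The gap between them, glycolytic minus non-glycolytic, was 0.03 ± 0.03, -0.13 ± 0.02 and 0.06 ± 0.04, beside an SD of 0.05 between the DMSO samples. With compounds 4 and 6 the gap was thus about as large as the spread between replicates; with compound 5 the glycolytic members lay further below DMSO, but the gap was 0.0009 when DMSO replicate 1 was left out. No test was made on these medians, since the members were chosen with results of these data known.

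**Figure D3:**
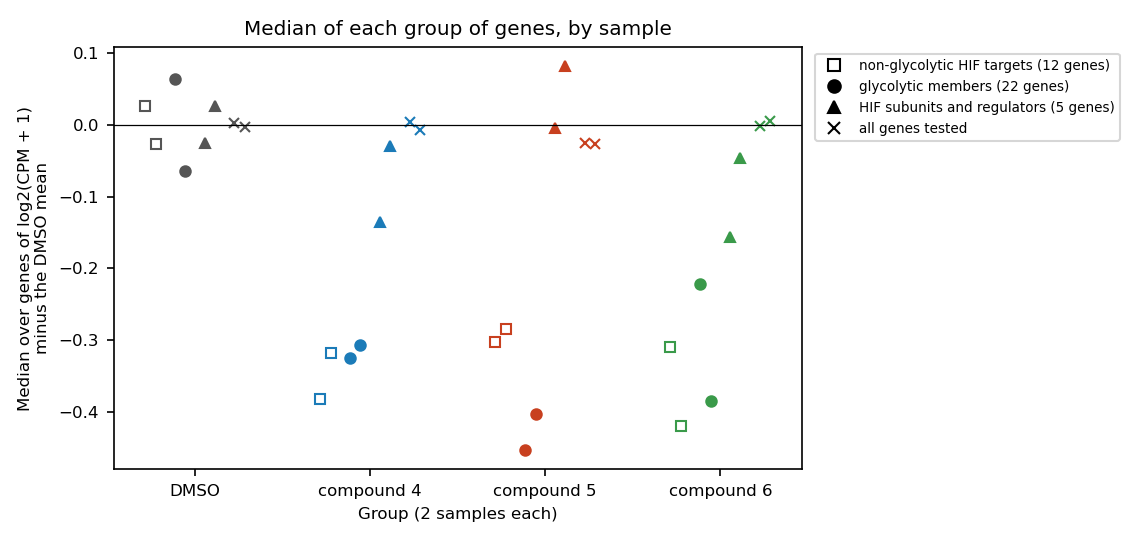
Median over the genes of each group of log2(CPM + 1) minus the DMSO mean, for each of the 8 samples. Both target groups lie below -0.2 in every treated sample, while the subunits and regulators and all 13404 genes tested lie between -0.16 and 0.08.

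The summed level of 16 core genes of glycolysis (*HK1* to *PKM*, without the *PFKFB* genes, plus *LDHA*) weights the glycolytic genes by their abundance. The sum was 16420.5 and 14628 CPM in the DMSO samples, against 12570.3 and 12685 CPM under compound 4. Under compound 5 it came to 12119 and 12075 CPM, and under compound 6 to 13392 and 11149 CPM. The treated samples did not overlap DMSO, and these genes took up 1.52% to 1.68% of all counts in DMSO and 1.12% to 1.36% in the treated samples.

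The compounds were compared with each other in the same fit, with the limit that each was given at its own concentration, so that structure and concentration cannot be told apart. All 3 pairs were tested, with p-values adjusted over the 13404 genes within each pair. Compound 5 differed from compound 4 in 8 of 39 members, where 13.9% of all genes were called: *HIF1A*, *VEGFA* and *HK2* were higher and *EGLN3*, *CA9*, *PFKFB3*, *PFKFB4* and *ALDOC* lower with compound 5. The differences, compound 5 minus compound 4, ran from -0.86 for *EGLN3* (95% interval -1.22 to -0.50; adjusted p = 0.011) and -0.82 for *CA9* (-1.23 to -0.41; adjusted p = 0.02) to 0.66 for *VEGFA* (0.31 to 1.02; adjusted p = 0.026). *PFKFB4* differed by -0.54 (adjusted p = 0.031), *ALDOC* by -0.64 (0.038), *PFKFB3* by -0.47 (0.038), *HIF1A* by 0.46 (0.036) and *HK2* by 0.46 (0.033). The *PFKFB3* call was lost with DESeq2 (adjusted p = 0.083) and without a filter on low counts (0.05). The *HIF1A* call was lost with upper-quartile factors (adjusted p = 0.052) and with library size alone (0.059), and the *HK2* call with library size alone (0.056). Without compound 5 replicate 1 or replicate 2 the count was 0 in each case, without compound 4 replicate 2 it was 2, without DMSO replicate 2 it was 5, and in a fit of these 2 groups alone it was 4, with *HIF1A*, *HK2*, *PFKFB3* and *PFKFB4* lost (adjusted p = 0.076, 0.056, 0.084 and 0.059).

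Compound 5 differed from compound 6 in 2 of 39 members, where 9.91% of all genes were called: *ALDOC*, lower with compound 5 by 1.06 on the log2 scale (95% interval of the difference -1.44 to -0.68; adjusted p = 0.0064), and *PFKFB4* (-0.60, -0.91 to -0.29; adjusted p = 0.026). *VEGFA* differed by 0.51 (adjusted p = 0.07, or 0.03 with the day as a block). The count was 0 without compound 5 replicate 1 or compound 6 replicate 1, 1 without compound 5 replicate 2, 5 without compound 6 replicate 2, and 4 and 5 without compound 4 replicates 1 and 2. Compounds 4 and 6, which share the methylene bridge, differed by edgeR in 0 of 39 members, where 0.0448% of all genes were called. At an unadjusted p under 0.05 in edgeR there were 7 members, for which no share over all genes is given here. DESeq2, which called 0.537% of all genes, called *NDRG1* alone among the members, a gene picked out here after its value was seen. *NDRG1* was higher with compound 4 by 0.48 (adjusted p = 0.0076 in DESeq2 and 0.17 in edgeR). These values do not show that compounds 4 and 6 act alike: the 95% interval of the difference was 0.05 to 0.54 for *SLC2A1*, -0.36 to 0.25 for *PFKFB4*, -0.79 to -0.05 for *ALDOC* and -0.17 to 0.63 for *CA9*.

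Genes of the same pathway outside the set were read from further lists. Of 10 other genes of the HIF machinery, 8 were tested, and 1, 2 and 1 were called with compounds 4, 5 and 6, where 11.9%, 28.1% and 4.4% of all genes were called. *CITED2*, a HIF target whose product competes with HIF for the coactivators CBP and p300, was 29 and 26.2 CPM in the DMSO samples, against 16.8 and 16.7 CPM under compound 4. *CITED2* had 10.9 and 11.7 CPM under compound 5 and 16.2 and 11.8 CPM under compound 6. It was below DMSO in every treated sample. *CITED2* was called with compound 4 (log2 fold change -0.72, SE 0.16, adjusted p = 0.014) and compound 5 (log2 fold change -1.29, SE 0.16, adjusted p = 0.00044). It was also called with compound 6 (log2 fold change -0.99, SE 0.16, adjusted p = 0.01). *ARNT*, the partner subunit, was 23.4 and 26.1 CPM in the DMSO samples, against 26.6 and 23.2 CPM under compound 4. *ARNT* had 34.1 and 32.7 CPM under compound 5 and 26.4 and 29.3 CPM under compound 6. *ARNT* rose with compound 5 (log2 fold change 0.43, SE 0.13, adjusted p = 0.032), a call lost with DESeq2, upper-quartile factors and library size alone (adjusted p = 0.056, 0.066 and 0.087). The *CITED2* call for compound 4 was lost without either DMSO replicate (adjusted p = 0.0736 to 0.0973). That for compound 6 was lost without either DMSO replicate or compound 6 replicate 2 (adjusted p = 0.0791 to 0.124). The *ARNT* call was lost without either DMSO replicate or either compound 5 replicate (adjusted p = 0.0614 to 0.194).

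Among 20 further HIF targets, all tested, compound 4 had 5 called (3 higher and 2 lower). Compound 5 had 9 (4 higher and 5 lower), and compound 6 had 2, both higher. The share called over all genes was 11.9%, 28.1% and 4.4%. Their median was -0.10, 0.11 and -0.13, with 11, 9 and 13 of the 20 below 0. *IGFBP1*, a secreted liver protein that binds insulin-like growth factors, was 1327 and 1051 CPM in the DMSO samples, against 2336 and 2665 CPM under compound 4. *IGFBP1* had 2883 and 2649 CPM under compound 5 and 1616 and 2486 CPM under compound 6. It rose by 1.07, 1.22 and 0.79 with compounds 4, 5 and 6 (adjusted p = 0.0051, 0.0012 and 0.04, the last 0.063 with the day as a block). *PPP1R3C*, a glycogen-targeting subunit of protein phosphatase 1, was 9.75 and 9.29 CPM in the DMSO samples, against 4.19 and 4.21 CPM under compound 4. *PPP1R3C* had 1.37 and 2.28 CPM under compound 5 and 7.19 and 5.35 CPM under compound 6. *PPP1R3C* fell with compound 5 (log2 fold change -2.36, SE 0.27, adjusted p = 0.00029) and compound 4 (log2 fold change -1.18, SE 0.24, adjusted p = 0.011). *ANGPTL4*, an inhibitor of lipoprotein lipase, was 12.5 and 9.21 CPM in the DMSO samples, against 5.22 and 8.19 CPM under compound 4. *ANGPTL4* had 5.5 and 4.71 CPM under compound 5 and 4.8 and 8.07 CPM under compound 6. *ANGPTL4* fell with compound 5 (log2 fold change -1.08, SE 0.29, adjusted p = 0.019). The *IGFBP1* call for compound 4 was lost without DMSO replicate 2 (adjusted p = 0.0731), and that for compound 6 without either DMSO replicate, either compound 5 replicate or compound 6 replicate 2 (adjusted p = 0.0632 to 0.369). The *PPP1R3C* call for compound 4 was lost without either DMSO replicate (adjusted p = 0.0672 to 0.0826). The *ANGPTL4* call was lost without DMSO replicate 1 or either compound 5 replicate (adjusted p = 0.0764 to 0.14).

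Of 26 other genes of glycolysis, gluconeogenesis and pyruvate use, among them the liver-type forms, 20 were tested; 5 were called under compound 4 (all higher), 10 under compound 5 (4 higher and 6 lower) and 3 under compound 6 (all higher). These counts stand beside 11.9%, 28.1% and 4.4% of all genes. *HKDC1*, a further hexokinase, was 43.4 and 50.3 CPM in the DMSO samples, against 80.1 and 79 CPM under compound 4. *HKDC1* had 122 and 117 CPM under compound 5 and 60.2 and 95 CPM under compound 6. Each treated sample was above DMSO. *HKDC1* rose with compound 4 (log2 fold change 0.76, SE 0.18, adjusted p = 0.021) and compound 5 (log2 fold change 1.35, SE 0.18, adjusted p = 0.0006). It also rose with compound 6 (log2 fold change 0.73, SE 0.18, adjusted p = 0.048, or 0.052 with the day as a block and 0.056 with library size alone). *GCKR*, which encodes a regulatory protein of liver glucose metabolism, was 6.6 and 7.23 CPM in the DMSO samples, against 15.5 and 14.3 CPM under compound 4. *GCKR* had 14 and 14.4 CPM under compound 5 and 12.1 and 19.2 CPM under compound 6. *GCKR* rose with each compound, by 1.10, 1.04 and 1.19 (adjusted p = 0.0085, 0.0054 and 0.015). The lactate dehydrogenase gene *LDHB* had a count of 0 in each of the 8 libraries, which allows a level of up to 0.234 to 0.313 CPM. *PKLR*, the liver pyruvate kinase, was 16 and 15.5 CPM in the DMSO samples, against 12.7 and 14.7 CPM under compound 4. *PKLR* had 6.23 and 7.38 CPM under compound 5 and 14.8 and 13.6 CPM under compound 6. The 2 compound 5 samples stood apart from the other 6 (log2 fold change -1.20, SE 0.16, adjusted p = 0.0006), with -0.20 and -0.15 for compounds 4 and 6. *PDK3*, another pyruvate dehydrogenase kinase, was 22.9 and 25.2 CPM in the DMSO samples, against 18.6 and 15.1 CPM under compound 4. *PDK3* had 13.9 and 12 CPM under compound 5 and 18.6 and 14.3 CPM under compound 6. *PDK3* fell with compound 5 (log2 fold change -0.90, SE 0.17, adjusted p = 0.0038). The *HKDC1* call for compound 4 was lost without either DMSO replicate (adjusted p = 0.0897 to 0.142), and that for compound 6 without either DMSO replicate, either compound 5 replicate or compound 6 replicate 2 (adjusted p = 0.0766 to 0.39). The *GCKR* call for compound 4 was lost without either DMSO replicate (adjusted p = 0.0647 to 0.0693), and that for compound 6 without either DMSO replicate or compound 6 replicate 2 (adjusted p = 0.111 to 0.144).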

How the data were processed

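Human CYP3A4-overexpressing HepG2 cells were profiled by RNA-seq in 8 samples, with a directional library kit and no molecular identifiers. The deposited values are estimated counts per gene: the authors quantified reads against a GENCODE 38 transcript index with Salmon 1.5.0 and summed transcripts to genes with tximeta, and the submitters' processing notes also list FastQC 0.12.0 and DESeq2 1.38.3. The deposited estimated counts are whole numbers. For replicate 1 of compounds 4 and 5 the headers of the deposited columns read merged, followed by 2 S-numbers. What was merged is not stated.

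Here counts were fitted with edgeR 4.0.16 in R 4.3.3 (TMM scaling, filterByExpr, quasi-likelihood F-test, all 8 samples in 1 fit), and p-values were adjusted by Benjamini-Hochberg over the 13404 genes tested, with a threshold of 0.05. SE and 95% intervals come from that fit and include the spread between replicates. CPM uses the library size of the tested genes times its TMM factor. DESeq2 1.42.0 was an alternative, as were other scaling factors, other filters, a fit of only the groups compared, a replicate block and leaving out each sample. Figures were drawn with matplotlib 3.10.9. The limits given for counts of 0 cover counting error only. Libraries held 9472261 to 13308975 counts.

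The labels mark replicates 1 and 2 as day 1 and day 2, so the numbers pair samples; the correlation over genes of 2 same-numbered samples' deviations lay between -0.08 and 0.16. No pair of replicates agreed within sampling noise (chi-square per degree of freedom 5.67 to 18.0).

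Symbols came from a reference table that named 60089 of the 60230 genes. Gene coordinates and transcript lengths came from GENCODE 29 and promoters from RefSeq, both on GRCh38. The members and the further lists were chosen with earlier results of these data known, and nothing here is independent support for them. Values in all samples were given to members called with at least 1 compound (of these 27, the 24 with the largest change) and to *HIF1A* and *EPAS1*, with *EGLN1*, *ENO1*, *GAPDH*, *CA12* and, from outside the set, *EGLN2* and *PFKFB2* added after their values were seen; further lists were represented by at most 4 called genes with the largest changes, and some genes of these lists are not reported here by name.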

Additional observations from a re-analysis of the deposited data

How the results depend on the processing

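With a replicate block the number of members called was 13, 25 and 10 for compounds 4, 5 and 6 against DMSO, 8 for compound 5 against 4, 3 for compound 5 against 6 and 0 for compound 4 against 6; the block changed the 7 member calls given with the results and no other member's call. At an adjusted p under 0.01 the counts were 6, 15 and 3 against DMSO, 0 for compound 5 against 4 and 1 for compound 5 against 6. For compound 6 against DMSO, DESeq2 called 14 and edgeR without a filter on low counts 19. Compound 5 against 4 gave 4 in a fit of only these groups. For compound 5 against 6 the count was 4 with DESeq2, 4 with upper-quartile factors, 4 with library size alone and 7 without a filter, and for compound 4 against 6 it was 1 with DESeq2 and 1 without a filter. Leaving out 1 sample at a time gave 3 to 16, 13 to 26 and 0 to 17 calls against DMSO, 0 to 9 for compound 5 against 4 and 0 to 5 for compound 5 against 6. Among these alternatives, the share of all genes called is given only for DESeq2, with compound 6 against DMSO and compound 4 against 6. The other alternative counts therefore do not set the members against all genes. Another pseudocount for the gap was chosen after seeing the data.

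With compound 5, upper-quartile factors and library size alone moved the median of the subunits and regulators to -0.047 and -0.067 and that of the non-glycolytic targets to -0.37 and -0.39; library size alone moved the glycolytic median to -0.56 and the median of all genes by -0.10. A filter of at least 10 counts in every sample left out *PFKM*. With it the glycolytic median with compound 5 was -0.37, against -0.46 in the main fit. With a pseudocount of 4 the gap with compound 5 was -0.061. Leaving out 1 sample gave medians of -0.018 to 0.12 for the subunits and regulators and -0.33 to -0.26 for the non-glycolytic targets with compound 5, -0.42 to -0.33 for the non-glycolytic targets with compound 4, and a gap of -0.16 to 0.000895 with compound 5.

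Members that changed sign were not called in either setting. *VHL* with compound 5 became -0.047 and -0.067 with upper-quartile factors and library size alone, and *MXI1* with compound 5 became -0.016 and -0.036. *P4HA2* became -0.018 with compound 4 (library size alone), and with compound 5 0.020 (DESeq2), 0.020 (RLE factors), 0.027 (no filter), 0.0045 (at least 10 counts in every sample) and 0.022 (only the groups compared). Leaving out 1 sample gave -0.029 to 0.31 for *HIF1A*, -0.12 to 0.034 for *VHL*, -0.17 to 0.060 for *VEGFA*, -0.021 to 0.065 for *P4HA2* and -0.17 to 0.12 for *MXI1* with compound 4, -0.018 to 0.12 for *VHL*, -0.083 to 0.046 for *P4HA1* and -0.074 to 0.091 for *P4HA2* with compound 5, and -0.18 to 0.35 for *VEGFA*, -0.22 to 0.49 for *PFKM* and -0.12 to 0.032 for *SLC16A3* with compound 6. Over all members and the further genes named, the other alternatives kept the sign and the call in 1098 values, added a call in 54, lost one in 24 and changed sign in 10, and leaving out a sample did so in 971, 35, 166 and 20. Of the further genes, these tallies cover only comparisons with DMSO called in the main fit, and all comparisons with DMSO for *PKLR*. *EGLN2* is therefore not in them. Between compounds they cover only members called in the main fit. The causes were not tested. The 2 samples per group limit every call, and genes near 3 counts cannot show a change at this depth.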
